A study of Cavia porcellus with 34 samples.

Results

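The corticosteroid receptors and the genes that glucocorticoids act through were described as a list of 10 genes named by symbol, of which 8 had a row in each of the 3 deposited tables. These 8 were NR3C1, NR3C2, FKBP4, FKBP5, TSC22D3, DUSP1, ZBTB16 and KLF9, among 12114 genes in F1, 12207 in F2 and 12068 in F3, and all 8 passed the filter on low values in every generation. SGK1, a kinase induced by both receptors, and HSD11B1, the enzyme that regenerates active glucocorticoid inside cells, had no row and were not analysed here.

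RNA of the hypothalamic paraventricular nucleus (PVN) was sequenced in juvenile female guinea pigs killed on postnatal day 40. F1 offspring of pregnant F0 animals given saline vehicle (Veh, labelled Control) were compared with F1 offspring of F0 animals given repeated courses of the synthetic glucocorticoid betamethasone (sGC, labelled Beta), with 5 animals in each group. F2 (5 Veh, 5 sGC) and F3 (6 Veh, 6 sGC) animals descended from the F1 animals through the paternal line and were not treated themselves. Tissue was taken in a basal state, without an acute stressor, from juveniles of a study that also ran behavioural tests, and the labels do not say which of these animals were tested. The PVN was removed as a punch that can hold neighbouring hypothalamus. The paper states that its sample sizes count independent litters, but the labels do not say which animals, if any, shared a litter. The p-values therefore measure only the spread between these animals that was left after the authors removed residual variation.

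Corticosteroids act through a pair of receptors that are transcription factors. The glucocorticoid receptor (GR, encoded by NR3C1) binds the hormone at the high levels of stress and of the daily peak, and in the PVN it carries the negative feedback that holds down corticotropin-releasing hormone. The mineralocorticoid receptor (MR, encoded by NR3C2) binds the same hormone with higher affinity and is largely occupied at rest. Without hormone, GR sits in a complex with HSP90 and its co-chaperones. FKBP5 keeps the receptor in a low-affinity state and is itself induced by it, and FKBP4 takes its place when the receptor moves to the nucleus. TSC22D3 (GILZ), DUSP1, ZBTB16 and KLF9 are classical genes induced by glucocorticoids.

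Values are the authors' corrected counts, scaled here so that animals of a table are comparable, and each generation was corrected in its own table, so levels are compared within a generation only. Before scaling, the summed values of an animal ran from 15573233 to 21935501 in F1, from 15645962 to 19435104 in F2 and from 18692048 to 18977539 in F3. PVN markers (AVP, OXT, CRH, TRH, SIM1, OTP and 4 others) were present in every table and none was at 0 in every animal. In F1, however, the summed level of the 10 PVN markers was 119597 to 235028 in Veh and 29109 to 188887 in sGC, with the sGC animals SGM4 (29109), SGM8 (37610) and SGM20 (59245) below every Veh animal. Marker sums add scaled values, so the most abundant markers of a list weigh most in them. Since whole punches were sequenced, fewer cells of a type and less RNA per cell cannot be told apart.

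In F1, expression of NR3C2 and ZBTB16 was increased in sGC animals, and the receptor GR, both immunophilins and the other 3 target genes did not pass the test. No member passed it in F2 or F3. The increase of NR3C2 in F1 differed from the effect in F2 and from that in F3, and the increase of ZBTB16 differed from the effect in F3. A gene was called when its adjusted p in limma, corrected by Benjamini-Hochberg over all genes tested, was under 0.05.

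**Figure D1:**
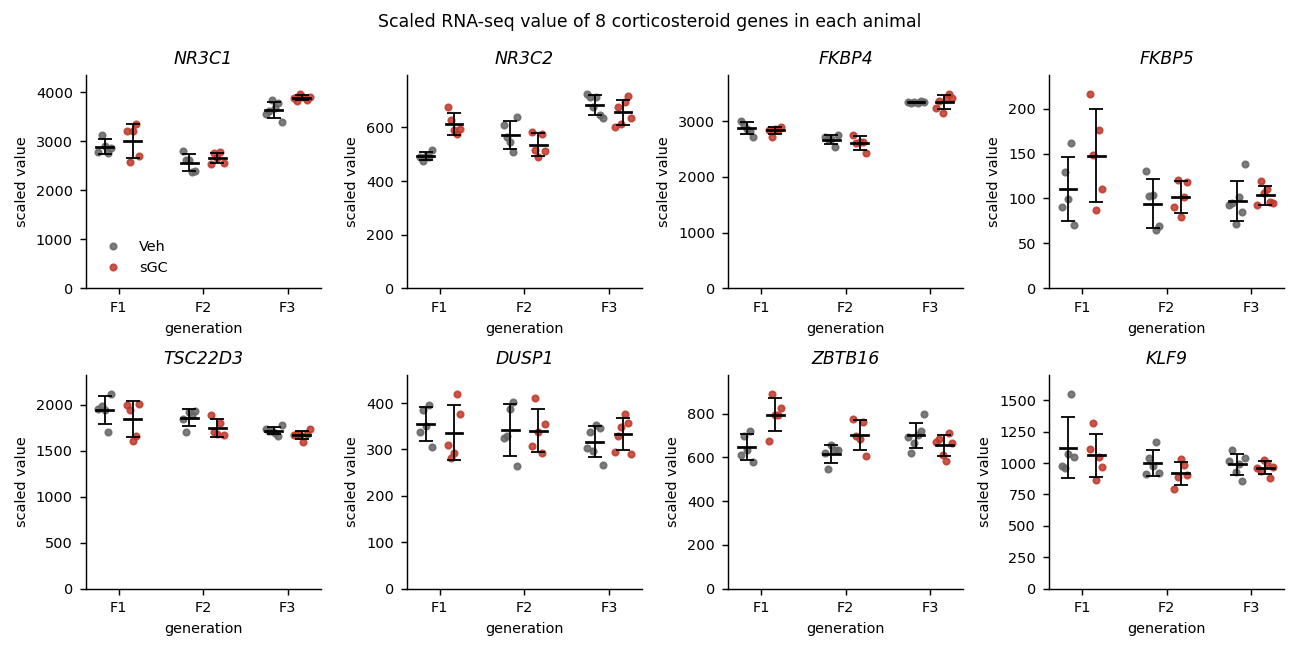
Scaled value (vertical axis, starting at 0) of each of the 8 genes in each animal, by generation; grey points are Veh animals, red points sGC animals, and black bars the mean ± SD. In F1 all 5 sGC animals lie above all 5 Veh animals for NR3C2, and 4 of 5 lie above every Veh animal for ZBTB16.

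NR3C2, the MR gene, was the member with the clearest difference. The 5 F1 Veh animals had scaled values of 491, 474, 494, 491 and 516. The 5 F1 sGC animals had 676, 627, 590, 577 and 595. Every sGC animal was therefore above every Veh animal, and the Veh animals lay close together, the highest 1.09-fold above the lowest. Mean NR3C2 was 493.3 ± 14.9 (SD, n = 5) for Veh against 613.1 ± 39.8 (SD, n = 5) for sGC. The log2 fold change was 0.31 (SE 0.0537, 1.24-fold, 95% interval 1.14 to 1.35, limma adjusted p = 0.00472). Of all 11870 genes tested in F1, 17.3% were called, 8.48% higher and 8.86% lower in sGC, 14.2% had groups that did not overlap and 33% had an unadjusted p under 0.05. The share called was 7.61% without the Veh animal SGM11. NR3C2 was 1 of 2 members called, both higher and the only 2 under the unadjusted threshold, and the only member whose F1 groups did not overlap.

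The call on NR3C2 held when any 1 animal was left out, with adjusted p between 0.00763 and 0.0197. The 2 highest sGC values were those of SGM4 and SGM8, the animals with the lowest PVN marker sums. When SGM4, SGM8 and SGM20 were all left out, the log2 fold change of NR3C2 was 0.24 (limma adjusted p = 0.039). Without any scaling of the sample totals the log2 fold change was 0.37 and the call was lost (limma adjusted p = 0.171).

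In F2, NR3C2 had scaled values of 607, 563, 545, 507 and 638 in Veh and 584, 516, 489, 577 and 512 in sGC. The groups overlapped and the mean was lower in sGC, with a log2 fold change of -0.09 (95% interval -0.26 to 0.07, limma adjusted p = 0.685). In F3 the lowest, median and highest values were 637, 693 and 725 in Veh and 602, 655 and 716 in sGC. Here too the groups overlapped, with a log2 fold change of -0.06 (95% interval -0.17 to 0.04, limma adjusted p = 0.625). The F2 and F3 intervals do not reach the F1 estimate.

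The difference between generations was tested in 1 limma fit of all 32 animals over 11425 genes present in the 3 tables. The log2 fold change of NR3C2 was higher in F1 than in F2 by 0.41 (standard error 0.0868, 95% interval 0.23 to 0.58, limma adjusted p = 0.00359), in a comparison that called 14.3% of all genes (5.02% with each table's own spread). It was higher in F1 than in F3 by 0.38 (standard error 0.0831, limma adjusted p = 0.00226), in a comparison that called 17.6%. Without scaling, the call against F3 was lost (0.44, adjusted p = 0.054). This fit shares 1 estimate of the spread, although the median within-group SD of all genes on the log2 scale was 0.1202 in F1, 0.1311 in F2 and 0.0823 in F3. With each table's own spread the adjusted p was 0.0201 for F1 against F2 and 0.00111 for F1 against F3. F2 and F3 differed by -0.03 (95% interval -0.20 to 0.14, limma adjusted p = 0.909), and that comparison called 0.158% of all genes and no member.

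NR3C1, the GR gene, did not follow NR3C2. The F1 Veh animals had scaled values of 2783, 3132, 2900, 2762 and 2851. The F1 sGC animals had 3214, 2568, 3215, 3342 and 2687. The sGC animals thus fell on both sides of the Veh range, with 3 above its highest and 2 below its lowest value. The GR gene thus had a log2 fold change of 0.05 (95% interval -0.11 to 0.22, limma adjusted p = 0.677). The 2 low sGC animals, SGM8 and SGM20, were among the 3 with PVN marker sums below the Veh range. With only the sGC animals SGM12 and SGM16 kept, the log2 fold change was 0.18 (limma adjusted p = 0.0753).

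In F2, NR3C1 had scaled values of 2797, 2607, 2620, 2380 and 2400 in Veh and 2535, 2759, 2648, 2774 and 2559 in sGC, all sGC values inside the Veh range (log2 fold change 0.05, 95% interval -0.06 to 0.17, limma adjusted p = 0.756). In F3 the lowest, median and highest values were 3390, 3642 and 3836 in Veh and 3814, 3883 and 3962 in sGC. Of the 6 F3 sGC animals, 5 were above every Veh animal. Its log2 fold change was 0.09 (SE 0.028, 1.07-fold, 95% interval 0.03 to 0.15), with an unadjusted p of 0.00469 in the limma fit and an adjusted p of 0.201. In F3, 13.2% of all genes had an unadjusted p under 0.05 and 0.0421% were called (0.00843% higher and 0.0337% lower in sGC), and groups that did not overlap were found for 1.26%. Among the 8 members, NR3C1 was the single one under the unadjusted threshold in F3, and no member was called or had groups that did not overlap.

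The ratio of NR3C2 to NR3C1 within an animal does not depend on scaling, and it compares animals, not the levels of the 2 genes. In F1 it was 0.151 to 0.181 in Veh and 0.173 to 0.244 in sGC, and 4 of 5 sGC animals were above every Veh animal. The highest ratios were those of SGM8 (0.244), SGM20 (0.221) and SGM4 (0.21), the sGC animals with PVN marker sums below the Veh range. The sGC animals inside that range, SGM12 and SGM16, had ratios of 0.184 and 0.173. The group means were 0.171 ± 0.012 (SD, n = 5) and 0.206 ± 0.029 (SD, n = 5). The order was the opposite in the later generations, with means of 0.224 in Veh and 0.202 in sGC in F2 and of 0.189 and 0.169 in F3, and the groups overlapped in both. These ratios are given as a description, with no test.

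**Figure D2:**
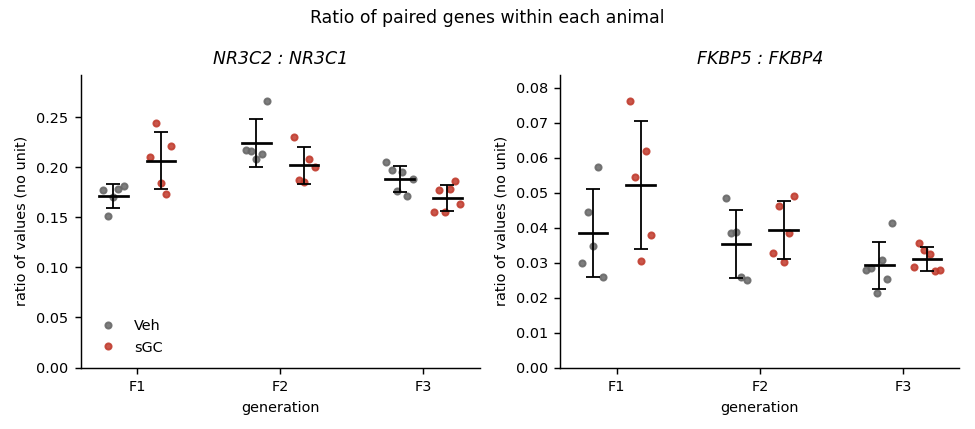
Ratio of NR3C2 to NR3C1 (left) and of FKBP5 to FKBP4 (right) in each animal, by generation, on axes starting at 0; grey points are Veh, red points sGC, and black bars the mean ± SD. The mean NR3C2 to NR3C1 ratio was 1.20-fold higher in sGC in F1 and 0.902-fold and 0.896-fold in F2 and F3, and FKBP5 to FKBP4 overlapped in each generation. In F1 the highest NR3C2 to NR3C1 ratios were those of the sGC animals SGM4, SGM8 and SGM20.

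ZBTB16 encodes a zinc finger repressor induced by glucocorticoids in many tissues. Its F1 scaled values were 613, 699, 633, 721 and 578 in Veh and 677, 889, 794, 795 and 825 in sGC. All 5 sGC animals were above the Veh mean and 4 were above every Veh animal, the exception being SGM4. Mean ZBTB16 was 648.8 ± 59.4 (SD, n = 5) for Veh against 796.2 ± 77 (SD, n = 5) for sGC. This is a log2 fold change of 0.29 (SE 0.0816, 1.23-fold, 95% interval 1.08 to 1.39, limma adjusted p = 0.0324).

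This call was close to the threshold. It was lost without scaling (limma adjusted p = 0.246) and with the variation removed by the authors counted in the fit as covariates (adjusted p = 0.055). It was also lost when the Veh animals SGM3, SGM11 or SGM19 or the sGC animals SGM8, SGM12, SGM16 or SGM20 were left out singly, with adjusted p over all 10 such fits between 0.0154 and 0.0808 and log2 fold changes between 0.25 and 0.35. Without SGM4, SGM8 and SGM20 the log2 fold change was 0.30 (limma adjusted p = 0.0737).

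In F2, ZBTB16 had scaled values of 619, 546, 655, 632 and 634 in Veh and 777, 698, 683, 762 and 606 in sGC. Of the sGC animals, 4 of 5 were above every Veh animal and 1 was below the Veh mean. Its log2 fold change was 0.19 (SE 0.0759, 1.14-fold, 95% interval 1.01 to 1.28), with an unadjusted p of 0.0303 in the limma fit and an adjusted p of 0.337. In F2, 0% of the 11959 genes tested were called by limma, 12.8% had an unadjusted p under 0.05 and 3.21% had groups that did not overlap, and ZBTB16 was the only member under the unadjusted threshold.

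In the same F2 animals the 8 oligodendrocyte markers were all lower in sGC, with groups that did not overlap for each and none called. Their sum was 135982 to 255975 in Veh and 79976 to 113695 in sGC. The sums of 5 oligodendrocyte precursor markers (6719 to 10185 in Veh, 5535 to 6167 in sGC) and of 6 ependymal markers (5275 to 6392 in Veh, 6394 to 8566 in sGC, all 6 higher in mean) did not overlap either, and 8 of 10 PVN markers had a higher mean in sGC. The part of these differences in the F2 values of ZBTB16 was not tested.

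In F3 the lowest, median and highest ZBTB16 values were 622, 698 and 800 in Veh and 586, 669 and 713 in sGC (log2 fold change -0.10, 95% interval -0.22 to 0.03, limma adjusted p = 0.526). The groups overlapped, and the mean lay on the other side of Veh than in F1. The F1 effect was higher than the F3 effect by 0.39 (standard error 0.1044, 95% interval 0.18 to 0.60, limma adjusted p = 0.0095), a call lost without scaling (adjusted p = 0.0771). F1 and F2 differed by 0.11 (95% interval -0.12 to 0.33, limma adjusted p = 0.543), and F2 and F3 by 0.28 (unadjusted p = 0.0107 in the limma fit, adjusted p = 0.206). The effects of F1 and F2 on ZBTB16 were thus not told apart at this number of animals, and neither were those of F2 and F3.

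**Figure D3:**
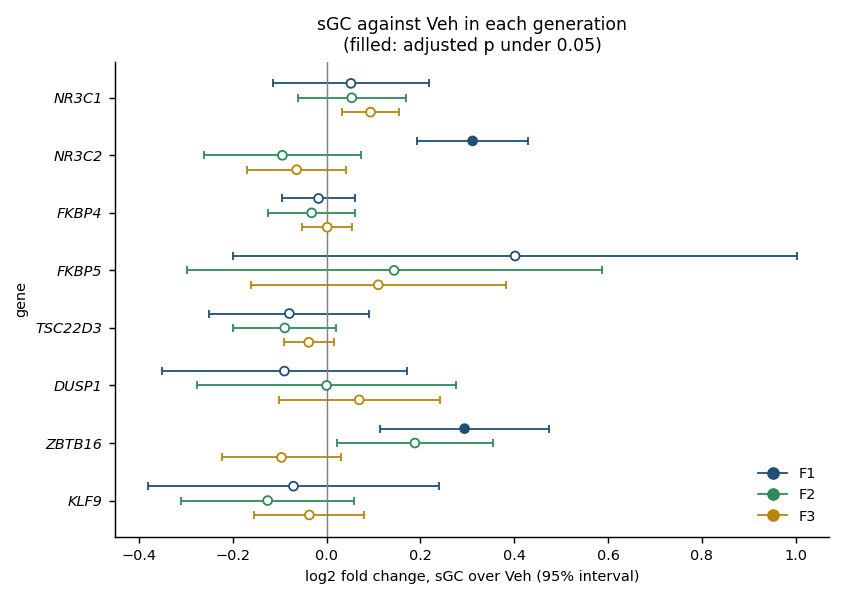
Log2 fold change of sGC over Veh (horizontal axis) with its 95% interval for each of the 8 genes (rows) in F1 (blue), F2 (green) and F3 (gold); filled points passed the adjusted threshold. NR3C2 (0.31) and ZBTB16 (0.29) are filled in F1 and no gene is filled in F2 or F3, and FKBP5 has the widest intervals.

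FKBP5, the co-chaperone that lowers the hormone affinity of GR and is a widely used readout of GR activity, had a higher mean in F1 sGC animals but an imprecise estimate. The F1 scaled values were 90, 130, 99, 162 and 71 in Veh and 216, 148, 87, 176 and 110 in sGC. The groups overlapped, 2 sGC animals were above every Veh animal and values varied 3.06-fold over the 10 animals. FKBP5 had a log2 fold change of 0.40 (SE 0.2731), and its interval ran from a 0.871-fold to a 2-fold level in sGC (limma adjusted p = 0.335). The log2 fold change was 0.25 without the sGC animal SGM4, 0.26 without the Veh animal SGM19 and 0.22 without SGM4, SGM8 and SGM20. Its within-group SD was larger than that of 94.2% of all genes in F1, 89.0% in F2 and 90.5% in F3.

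The F2 values of FKBP5 were 131, 103, 103, 65 and 69 in Veh and 90, 121, 79, 101 and 119 in sGC, and the F3 lowest, median and highest values were 71, 94 and 138 in Veh and 93, 101 and 120 in sGC. Every sGC animal was inside the Veh range in both generations. The log2 fold changes were 0.14 in F2 (95% interval -0.30 to 0.59) and 0.11 in F3 (95% interval -0.16 to 0.38), with limma adjusted p of 0.846 and 0.765.

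FKBP4, the co-chaperone that accompanies the receptor to the nucleus, was among the least variable genes of the tissue. Only 3.70% of genes in F1, 6.54% in F2 and 7.28% in F3 had a smaller within-group SD. Its F1 values ran from 2719 to 3010 in Veh and from 2722 to 2903 in sGC, and the log2 fold change was -0.02 (95% interval -0.09 to 0.06, limma adjusted p = 0.779). The estimates were -0.03 in F2 (95% interval -0.12 to 0.06) and 0.00 in F3 (95% interval -0.05 to 0.05). These intervals hold no change larger than 1.04-fold upward or 0.917-fold downward in any generation. In F3 the Veh animals lay close together, from 3320 to 3362 (SD 14.8). The F3 sGC animals ran from 3155 to 3490 (SD 125), with 4 above and 2 below every Veh animal. The ratio of FKBP5 to FKBP4 had means of 0.0385 in Veh and 0.0522 in sGC in F1, then 0.0352 (Veh) against 0.0393 (sGC) in F2, and 0.0292 (Veh) against 0.0310 (sGC) in F3, with overlapping groups each time.

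TSC22D3, DUSP1 and KLF9, which respond to glucocorticoid within hours in many cells, showed no called difference. TSC22D3 (GILZ, a mediator of the anti-inflammatory action) had F1 values of 1957, 1993, 1949, 1709 and 2116 in Veh and 2001, 1943, 1609, 1663 and 2007 in sGC. No sGC animal was above the Veh range and 2 were below it, SGM12 and SGM16. For TSC22D3 the log2 fold change was -0.08 in F1 (95% interval -0.25 to 0.09, limma adjusted p = 0.51), -0.09 in F2 (95% interval -0.20 to 0.02, adjusted p = 0.507) and -0.04 in F3 (95% interval -0.09 to 0.02, adjusted p = 0.548). With only the F1 sGC animals SGM12 and SGM16 kept, it was -0.25 in F1 (limma adjusted p = 0.0728).

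DUSP1, a phosphatase that switches off MAP kinases, had F1 values from 305 to 395 in Veh and from 282 to 419 in sGC. The sGC animals spanned the whole Veh range. Its log2 fold change was -0.09 in F1 (95% interval -0.35 to 0.17), 0.00 in F2 (95% interval -0.28 to 0.28) and 0.07 in F3 (95% interval -0.10 to 0.24).

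KLF9, a transcription factor induced by glucocorticoid and by thyroid hormone, had F1 values of 980, 957, 1074, 1549 and 1051 in Veh and 1110, 1322, 862, 1047 and 971 in sGC. The Veh animal SGM15 (1549) stood above every other F1 animal. The log2 fold change was -0.07 (95% interval -0.38 to 0.24, limma adjusted p = 0.77), and without SGM15 its sign turned to 0.05. Its sign held in only 8 of the 10 fits that left out 1 animal. The F2 and F3 estimates were -0.13 (95% interval -0.31 to 0.06) and -0.04 (95% interval -0.15 to 0.08). Leaving out SGM15 did not bring KLF9 to a call.

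The 8 members did not vary together from animal to animal. After group means were subtracted, Pearson's r over the 32 animals lay between -0.466 and 0.404 for the 28 pairs, with 14 positive and 14 negative and a median of 0.013. The pair of NR3C1 and FKBP5 had r = 0.786 in the 10 F2 animals and r = -0.816 in the 12 F3 animals. These correlations describe values from which the authors had already removed residual variation, and they carry no test.

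The genes whose variation was most like that of NR3C2 among the 11424 others included FCER1G, FUT8, KBTBD11 and FAM105A, with r from 0.693 to 0.772. FCER1G encodes a signalling chain of immune receptors, in the brain mainly in microglia, and its r with NR3C2 was 0.874 in F1, 0.839 in F2 and 0.787 in F3. For NR3C1 the closest genes were PTBP3, MAPK1IP1L, SF3A1, SERPING1 and WBP5 (r from 0.749 to 0.774). For FKBP5 they were TRIOBP, CD320, SEPN1, SMARCE1 and NPR1 (r from 0.714 to 0.760). NPR1 had r = -0.389 with FKBP5 in F3, so its place rests on F1 and F2.

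The wider pathway was described with 6 lists of genes around the receptors. The coregulators are recruited by DNA-bound receptors to open or close chromatin. Of 14 coregulators tested in F1, 8 rose (8.48% of all genes did), 1 fell (8.86% of all genes), 8 had groups that did not overlap (14.2% of all genes), and the median log2 fold change was 0.23 against 0.00 over all genes. EP300, a histone acetyltransferase, rose from 1049 ± 19 (SD, n = 5) to 1543 ± 40.3 (SD, n = 5), a log2 fold change of 0.56 (standard error 0.0336, limma adjusted p = 4.42e-05). The Mediator subunit MED1 rose by 0.26 on the log2 scale (adjusted p = 0.00336 in limma), and the coactivator NCOA1 rose by 0.23 (adjusted p = 0.00366). The gene that fell was HDAC3, a histone deacetylase that acts in corepressor complexes, with a log2 fold change of -0.29 (adjusted p = 0.00831), and it was chosen for mention after its value was seen.

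The count of coregulators that rose stayed between 6 and 8 when any 1 animal was left out and was 7 without SGM4, SGM8 and SGM20. Without scaling it was 1 (EP300, limma adjusted p = 0.0195), and the list's median lay 0.23 above that of all genes, as with scaling. HDAC3 was still called lower when any 1 animal was left out. No coregulator was called lower without SGM4, SGM8 and SGM20, or without scaling.

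The chaperones and co-chaperones that hold GR ready for hormone went the other way in F1. All 12 tested had a lower mean in sGC, 3 of them fell, against 8.86% of all genes, and the median log2 fold change was -0.10. Among them, PPID (cyclophilin 40) fell by 0.21 on the log2 scale (limma adjusted p = 0.00938) and PTGES3 (p23) by 0.21 (adjusted p = 0.018). HSP90AB1, the constitutive HSP90, had groups that did not overlap, at 35730 ± 990 (SD, n = 5) in Veh and 32970 ± 1280 (SD, n = 5) in sGC, with an adjusted p of 0.0846. Without the Veh animal SGM11 the count that fell was 1. It was also 1 without SGM4, SGM8 and SGM20, and then 9 of 12 had a lower mean. It was 0 without scaling, with 10 of 12 lower.

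The other lists held few calls in F1. Of 32 further glucocorticoid-induced genes, 1 rose (8.48% of all genes did) and 1 fell (8.86% of all genes), with 17 higher and 15 lower in mean. The gene that rose was GLUL, the glutamine synthetase of astrocytes (log2 fold change 0.45, limma adjusted p = 0.0423), and the gene that fell was RGS2, a regulator of G protein signalling (-0.44, adjusted p = 0.043). Neither was called without SGM4, SGM8 and SGM20 (0.15 with adjusted p = 0.207 for GLUL, -0.13 with adjusted p = 0.405 for RGS2), and the call on RGS2 held in only 1 and that on GLUL in only 3 of the 10 fits without 1 animal.

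Of 7 genes of MR-linked ion transport, 1 rose, against 8.48% of all genes. This was WNK1, a kinase upstream of sodium transporters (log2 fold change 0.30, limma adjusted p = 0.0115). It was not called without SGM4, SGM8 and SGM20 (0.21, adjusted p = 0.137). None of 5 genes of corticosteroid synthesis, inactivation and transport was called, with a median log2 fold change of 0.20. Of these, ABCB1, the efflux pump that limits entry of corticosteroids to the brain, had a log2 fold change of 0.73 (adjusted p = 0.0528). None of 11 genes that glucocorticoids are known to repress was called, CRH included (323.3 ± 97.1 in Veh, 161.1 ± 89.4 in sGC, SD, n = 5, limma adjusted p = 0.0881).

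**Figure D4:**
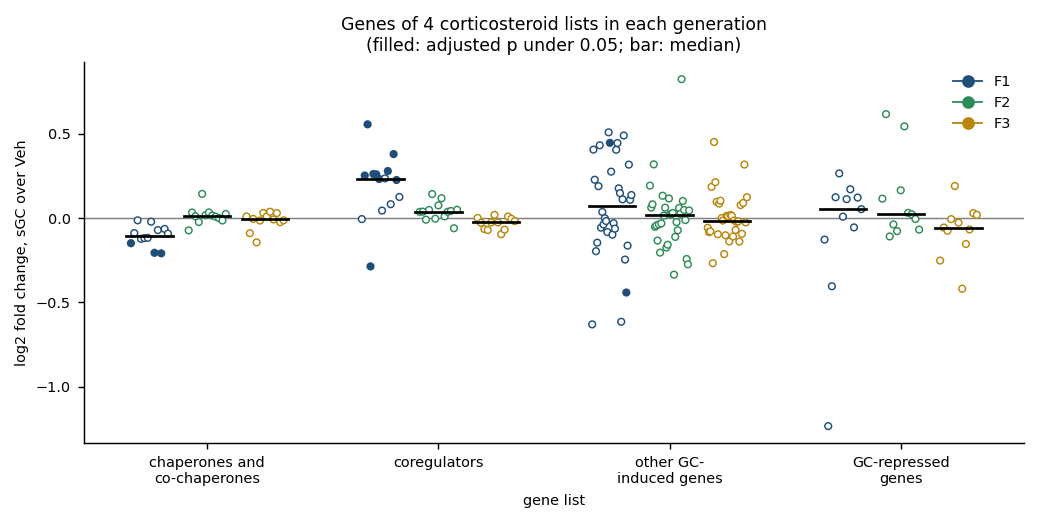
Log2 fold change of sGC over Veh (vertical axis) for each tested gene of 4 lists around the corticosteroid receptors, in F1 (blue), F2 (green) and F3 (gold); filled points passed the adjusted threshold and black bars are list medians. Filled points occur only in F1, with coregulators mostly above 0 (median 0.23) and all 12 chaperones below 0 (median -0.10).

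In F2 and F3 no gene of the 6 lists was called by limma. The coregulator median was 0.04 in F2 and -0.03 in F3, and the chaperone median 0.01 in F2 and -0.01 in F3. At an unadjusted p under 0.05, which 12.8% of all genes had in F2, there were 1 of 12 chaperones, 1 of 13 coregulators, 2 of 32 other induced, 3 of 11 repressed and 1 of 7 ion transport genes. In F3, where 13.2% of all genes had it, there were 2 of 12 chaperones, 1 of 12 coregulators, 8 of 32 other induced and 2 of 6 ion transport genes. Of the 32 other induced genes in F3, 15 were higher and 17 lower in mean, with a median log2 fold change of -0.01. Those at an unadjusted p under 0.05 included TXNIP (log2 fold change 0.32, limma adjusted p = 0.174), FOXO1 (0.10, adjusted p = 0.203) and CDKN1A (0.19, adjusted p = 0.234), higher in sGC, and KLF15 and ERRFI1, lower in sGC.

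Other cell type markers moved with the F1 groups too. All 8 endothelial markers had a higher mean in sGC and none was called, with a median log2 fold change of 0.37. Their sum was 9742 to 11300 in Veh and 9997 to 17927 in sGC, highest in SGM4 (17927) and SGM8 (16215). ABCB1 is among these endothelial markers. Of the 10 PVN markers, 9 had a lower mean in sGC and 1 fell, against 8.86% of all genes. This was TRH (0.499-fold, limma adjusted p = 0.0398). The sum of 6 microglial markers was 3649 to 3907 in Veh and 3698 to 6510 in sGC, again highest in SGM4 (6510) and SGM8 (4461), the animals with the highest NR3C2 values. The next highest sum was that of SGM16 (4270), the sGC animal with the lowest NR3C2 value (577). Of these 6 markers, 4 were higher and 2 lower in mean. For 3 vascular smooth muscle and pericyte markers the sum was 3327 to 3852 in Veh and 3792 to 12144 in sGC, highest in SGM4. For 7 oligodendrocyte markers it was 33861 to 60451 in Veh and 37669 to 102223 in sGC, highest in SGM8. All markers of both lists had a higher mean in sGC and none was called. Of the neuronal markers, 4 were higher and 4 lower in mean, and of the ependymal markers 3 and 3. Outside the endothelial and PVN lists of F1, the microglial receptor CX3CR1 (1.19-fold, limma adjusted p = 0.0496) and the precursor marker VCAN (1.21-fold, adjusted p = 0.0226) rose and the neuronal STMN2 (0.862-fold, adjusted p = 0.0197) fell. The part of these differences in the F1 values of the members was not tested beyond the fits without SGM4, SGM8 and SGM20 given above.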

How the data were processed

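PVN punches of 32 juvenile female guinea pigs were sequenced (TruSeq RNA V2). The authors aligned the reads to cavPor3 with TopHat2, counted them on genes with GenomicAlignments, removed outliers, corrected the F3 batches with ComBat and removed residual variation with RUVSeq. The deposited values are these corrected counts rounded to whole numbers and were treated as a score, not as raw reads, so no interval from counts is given. The values lack 1 direction of variation in the F1 table, 1 in the F2 table and 2 in the F3 table. Each table also holds 6 columns of the authors' own comparison by edgeR, which were not used. Another 2 re-sequenced F3 libraries were not used here. In F3, 4 sGC animals came from the first sequencing batch with all 6 Veh animals, and 2 sGC animals from the second.

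Values were divided by median-of-ratios size factors per table. limma 3.58.1 (R 4.3.3) was run per generation on log2(scaled value + 1), with a trended prior and two-sided p-values. The pseudocount was 1, and the filter kept genes whose mean scaled value reached 10. Fold changes are on that scale. p-values were adjusted by Benjamini-Hochberg over all genes tested, with a threshold of 0.05. Differences between generations came from a fit of 6 group means. The procedure was also run on simulated data with known changes. In these, genes varied independently of each other, so they cannot show how cell content or the removed variation affects the calls.

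The members, the gene and marker lists and the tests were chosen with earlier results of these data known. All members are named in each generation. Of each list, at most 4 called genes are named, by smallest p, and genes without a call are named after their values were seen. For NR3C1, NR3C2 and FKBP5 the 5 most correlated genes are named. A few genes that these rules select are not reported here. Alternatives were other scalings, pseudocounts and filters, the removed directions as covariates, the F3 batch and leaving out each animal. Each table's own spread, the replicate block, the fits without the F1 sGC animals below the Veh range of the PVN marker sum, and the alternatives for lists and ratios were chosen after seeing the data. No sequence is given, because no genome of the build was used here.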

Additional observations from a re-analysis of the deposited data

Results flagged for a closer look

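Among 60 sets of values (each member and ratio in each group), 2 held an animal that stood apart by Dixon's criterion at 95%, where chance gives about 3. The F1 Veh animal SGM15 had a KLF9 value of 10.60 on the log2 scale against 9.90 to 10.07 in the other 4. The F2 Veh animal SGM29 had a log2 ratio of NR3C2 to NR3C1 of -1.91 against -2.26 to -2.20 in the other 4. Effects that differed between generations were those of NR3C2 in F1 against F2 (a difference of log2 fold changes of 0.41) and in F1 against F3 (0.38), and that of ZBTB16 in F1 against F3 (0.39).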

How the results depend on the processing

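Without scaling the F1 count of members called was 0 and the F1 minus F3 count 0. With the removed directions as covariates the F1 count was 1, ZBTB16 being lost (limma adjusted p = 0.055). It was also 1 with only the F1 sGC animals inside the Veh range of the PVN marker sum, and leaving out each animal gave 1 to 2. The other counts of members stayed as given under every alternative run. The whole F1 table had 2058 genes called as scaled, 48.9% of them higher, 2084 with quantile normalization (44% higher), 1345 with the removed directions as covariates, 1032 with 62.6% higher in the fit that kept the F1 sGC animals SGM12 and SGM16, 904 without the Veh animal SGM11, which carried 78.9% of the direction removed in F1, and 78 without scaling (92.3% higher). F2 had 42 under quantile normalization and 0 as scaled, and F3 had 5, against 3 with batch as a covariate, 1 with the removed directions and 0 in the first batch. Without scaling the median difference of all genes between the F1 and F2 effects moved to 0.13 on the log2 scale, and that of NR3C2 was then 0.54. Estimates near 0 changed sign. FKBP4 went to 0.0456 in F1 without scaling, and in F3 to 0.00 without scaling, -0.0017 with total scaling, -0.0063 with quantile normalization, -0.0218 in the first batch, -0.0214 with batch as a covariate, and -0.0113 to 0.0187 when each animal was left out. NR3C1 went to -0.0202 in F2 without scaling. DUSP1 in F2 was 0.0097 with total scaling and -0.0886 to 0.0638 without each animal. KLF9 in F1 was -0.1542 to 0.0522 and the F2 minus F3 difference of NR3C2 -0.0713 to 0.0102 without each animal. Why the scaling changes the calls was not tested. The column headers number the Veh and sGC animals of a table alike, but nothing says that a number marks a shared litter or day. Animals with the same number had correlations of their deviations from -0.24 to 0.313 in F1, -0.412 to 0.223 in F2 and -0.543 to 0.186 in F3, so the numbers were not taken to pair them. With that number as a replicate block, chosen after seeing the data, the F1 count of members called was 1 (NR3C2, limma adjusted p = 0.0384) and that of coregulators that rose 5, of 771 genes called in F1, and the counts of members in F2 and F3 were 0.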
